A study of Mus musculus with 5 samples.

Results

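Regions where the antibody to native Olig2 gave a binding event, and no other antibody did, were described across the mouse genome. Events of 4 lists on the 19 autosomes and X were pooled and sorted, and neighbours no more than 200 bp apart were chained into regions. The regions were chosen by the listed positions: one was kept when every event in it came from the native Olig2 list. This left 4893 regions of 58192 in all, or 33.6% of the 14553 regions with a native Olig2 event (Wilson 95% interval 32.9 to 34.4). They are called native-alone regions here.

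Olig2, of the basic helix-loop-helix family, marks motor neuron progenitors of the ventral spinal cord and, later, the oligodendrocyte lineage. Proteins of this family bind DNA as dimers at short E-box sequences, and Olig2 acts largely as a repressor when it patterns the progenitors. Hoxc9 is a homeodomain factor that gives thoracic identity along the cord. In ChIP-seq, an antibody pulls down a protein together with the DNA fixed to it, the DNA is sequenced, and a caller places an event where the reads pile up.

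All cells were derived from Ainv15, a mouse embryonic stem cell line in which doxycycline switches on an inserted factor carrying a short epitope tag. All were grown as embryoid bodies, and from day 2 the medium held retinoic acid (1 µM) and the hedgehog agonist SAG (0.5 µM). The native Olig2 list came from day 4 cells of the line with inducible V5-tagged Olig2, without doxycycline, with a rabbit antibody to Olig2. For the V5 Olig2 list, this line was treated with 3 µg/ml doxycycline, taken at day 4 and probed with an antibody to V5. The V5 Hoxc9 and Flag Hoxc9 lists came from day 5 cells with doxycycline, from a line with V5-tagged and a line with Flag-tagged Hoxc9. The cells were whole cultures at the labelled stage, not sorted progenitors. Events numbered 15700 for native Olig2 and 11071 for V5 Olig2, and for Hoxc9 11070 with V5 and 49288 with Flag. Each event had its estimated reads in the IP and in a control. Each condition had 1 list, so nothing below has a replicate check and no test of a difference was run. The Wilson intervals cover counting error only. Library totals were not used here, and sequencing depth is unknown.

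The native-alone regions were weak members of the native list. The values in this and the next paragraph belong to the list that chose the regions, so they are a description. A region is represented by its event with most IP reads. Native IP reads at native-alone regions had a median of 24, with quartiles of 19.9 and 31, and ran from 11.1 to 152. Of the 4893 regions, 1225 had under 20 IP reads and 2278 had 20 to 30, while 194 had 50 or more and 8 had 100 or more. Regions with both Olig2 lists and no Hoxc9 event (5427 regions) had a median of 41 native IP reads, and those with both Olig2 lists and Hoxc9 (2504 regions) one of 56.9. Native regions with a Hoxc9 event but no V5 Olig2 event (1729 regions) had a median of 26, close to that of the native-alone regions.

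**Figure D1:**
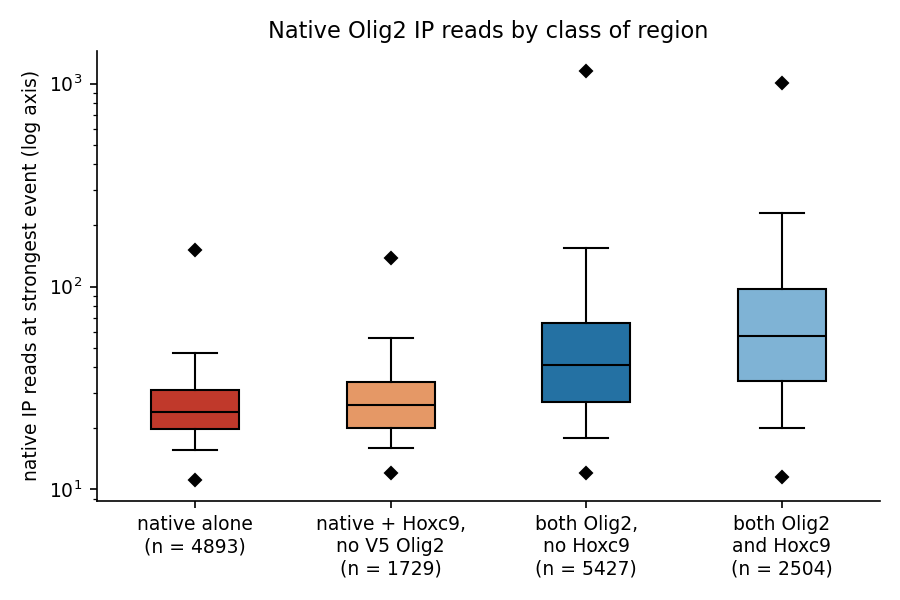
Native IP reads at the strongest native event of a region (vertical log axis) for 4 classes of region with a native Olig2 event. Boxes give the median and quartiles, whiskers the 5% and 95% points, and diamonds the lowest and highest region; both classes without a V5 Olig2 event (medians 24 and 26) lie below both classes with one (medians 41 and 56.9).

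The share of native regions that stood alone rose as IP reads fell. It was 0.755% in the 10% of native regions with most IP reads (11 of 1456), 4.88% in the next, 34.8% in the fifth and 58.9% in the ninth (857 of 1455; Wilson 95% interval 56.4 to 61.4). In the 10% with fewest reads it was 55.8% (53.2 to 58.3). No native-alone region ranked among the first 500 native events, 6 ranked among the first 1000 and 343 among the first 5000. Native regions with Hoxc9 but no V5 Olig2 event also became more frequent, from 0.549% to 18.2%, and made up a smaller share than the native-alone regions in each of the 10 steps. The authors' −log10 q had a median of 2.88 at native-alone regions, and the lowest value in the native list was 2.02.

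**Figure D2:**
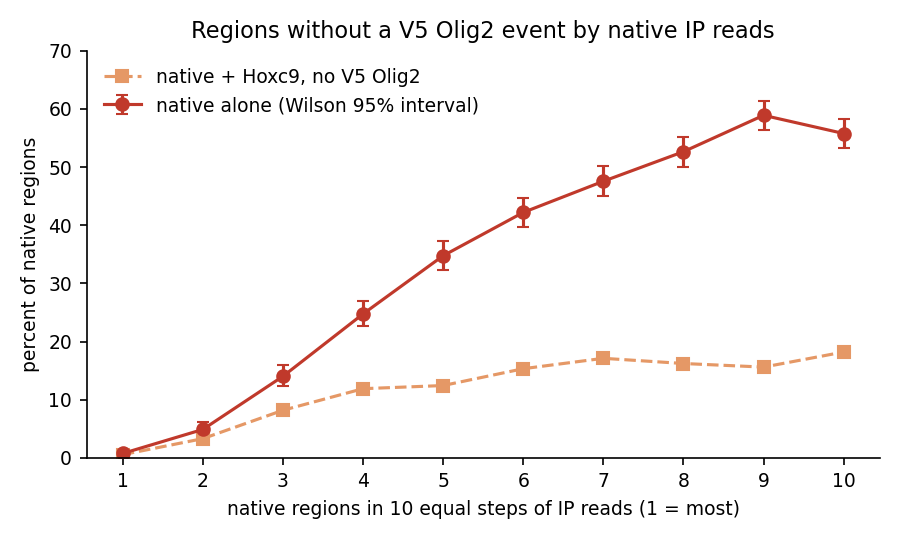
Percent of native regions (vertical axis) that were native-alone (circles, with Wilson 95% intervals) or held Hoxc9 but no V5 Olig2 (squares), in 10 equal steps of native regions ranked on IP reads (horizontal axis, most reads first). The native-alone share rises from 0.755% in the first to 58.9% in the ninth and is 55.8% in the last.

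The 10 native-alone regions with most IP reads lay on 7 chromosomes. The strongest, at position 86521194 on chromosome 10 (mm9 throughout), had 152 IP and 4.5 control reads, a deposited fold of 34 and rank 580 in the native list. Its nearest V5 Olig2 event was 42129 bp away, and a weak Flag Hoxc9 event with 26.3 IP reads lay 1179 bp away. The second, on chromosome 8, held 2 native events 155 bp apart, with 27.6 IP reads at 90355664 and 135.9 at 90355819, against 0.5 and 1.3 control reads. Its nearest V5 Olig2 event was 5035 bp away and had 35.6 IP reads. These regions were thus well read with the native antibody and had no listed V5 Olig2 event nearby.

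A pair of regions followed with 131 IP reads each. The one at 44892344 on chromosome 19 had 2.7 control reads and a Flag Hoxc9 event with 91.5 IP reads 378 bp away. The one at 11211961 on chromosome 10 had 11.3 control reads and a fold of 11.6. The region at 91895640 on chromosome 2 was like the latter, with 99 IP reads, 7.9 control reads and a fold of 12.5. These were the lowest folds among the 10, whose other folds ran from 28.2 to 101.

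The remaining strong regions differed in what lay around them. At 125042087 on chromosome 8 the native event had 110.4 IP reads, and a V5 Olig2 event with 312.5 IP reads, ranked 151 in its list, lay 484 bp away. At 138665712 on chromosome 1 the native event had 127 IP reads, and the nearest V5 Olig2 event, with 222 IP reads, was 13339 bp away. The region at 37929148 on chromosome 1 had 108 IP reads, and its nearest Hoxc9 events were 174673 bp (V5) and 233179 bp (Flag) away. The region at 12676942 on chromosome 18 had 121 IP reads and its nearest V5 Olig2 event at 80755 bp. For the region at 106528632 on chromosome 4, with 97 IP reads, that distance was 11010 bp. Of the 10, therefore, 1 had a V5 Olig2 event within 500 bp and the others had none within 5 kb.

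Nearly all native-alone regions were single events: 4855 held 1 event and 38 held 2 (0.777%). Regions with 2 or more native events made up 2.78% of native regions with Hoxc9 and no V5 Olig2 (48 of 1729). They made up 7.41% of regions with both Olig2 lists alone (402 of 5427) and 7.13% of all native regions (1038 of 14553). In classes with several lists, an event of another list can chain native events over 200 bp apart. The shares are therefore not strictly comparable. In the 38, the events lay a median of 143.5 bp apart, with median IP reads of 26.6 at the stronger and 20.95 at the weaker event. After the region on chromosome 8, the strongest of the 38 was on chromosome 11, with 93.2 IP reads at 117179103 and 39.8 at 117179291. The next had 28 and 75 IP reads at 59463812 and 59463987 on chromosome 1, with a V5 Hoxc9 event 434 bp and a Flag Hoxc9 event 440 bp from the stronger. The one after had 19.2 and 70.8 IP reads at 73814299 and 73814497 on chromosome 15. The last of the 5 strongest had 60.5 and 32.5 at 22818875 and 22819010 on chromosome 10.

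Control reads at native-alone regions had a median of 1.1, beside 1.0 for regions with both Olig2 lists alone, but were higher when regions of like IP reads, from 20 to 100, were compared. The fold, which divides IP by control reads, was under 10 at 8.24% of native-alone regions (403 of 4893; Wilson 95% interval 7.50 to 9.04). It was under 10 at 3.88% of native regions with Hoxc9 and no V5 Olig2, and at 1.90% of regions with both Olig2 lists alone. These shares of the fold were not matched on IP reads, whose medians were 24, 26 and 41 in the same order of classes. Among native regions with 30 to 40 IP reads, 3 or more control reads were listed at 17.4% of native-alone regions (156 of 894; 15.1 to 20.1), at 6.50% of those with Hoxc9 and no V5 Olig2 (4.29 to 9.73) and at 4.08% of those with a V5 Olig2 event (3.14 to 5.29).

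The same order was seen with 40 to 60 IP reads, where the percentages were 23.2, 13.1 and 9.22, and with 60 to 100, where they were 37.2, 23.5 and 10.6. With 20 to 30 IP reads they were 4.70, 2.94 and 1.80. In this and the preceding range the intervals of the first 2 classes overlapped. Median control reads at 30 to 40 IP reads were 1.7 at native-alone regions, 1.4 with Hoxc9 and no V5 Olig2, and 1.0 with a V5 Olig2 event. Under 20 IP reads no region of any class had 3 or more control reads, and median control reads were 0.7 at native-alone regions and 0.3 in each other class. With 100 or more IP reads few regions without V5 Olig2 were left. There the order of the percentages differed: 3 or more control reads were listed at 2 of 8 native-alone regions (25.0%), at 2 of 6 with Hoxc9 and no V5 Olig2 (33.3%) and at 17.5% of those with a V5 Olig2 event. Median control reads there were 2.7, 1.55 and 1.7 in the same order of classes, so the native-alone median was highest, on few regions. Control reads were not used by the rule, but they enter the p by which an event was listed. Regions with 3 or more control reads were a minority of the native-alone regions in each of these ranges. Control reads were listed at 0 for 353 of the 4893 (7.21%), near the 7.40% of all native regions (1077 of 14553).

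**Figure D3:**
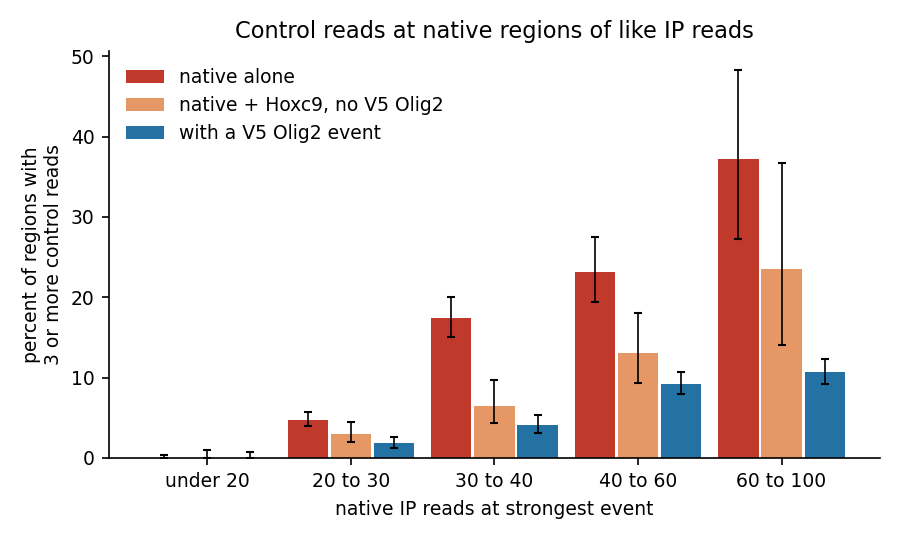
Percent of native regions with 3 or more control reads (vertical axis, bars with Wilson 95% intervals) by native IP reads of the strongest event (horizontal axis), for native-alone regions, native regions with Hoxc9 and no V5 Olig2, and native regions with a V5 Olig2 event. The ranges run up to 100 reads, and in those from 20 to 100 the native-alone bars are highest (17.4%, 6.50% and 4.08% at 30 to 40 reads); under 20 reads all are 0.

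The native-alone regions with most control reads had low folds. Such high control reads were not confined to this class. The highest value was 19.2 at native-alone regions and 21.6 at regions with both Olig2 lists alone, and the 95% point was 3.4 in both. The event at 197067819 on chromosome 1 had 72.4 IP and 19.2 control reads, a fold of 3.8. The event at 22600421 on chromosome 2 had 51.7 IP and 14 control reads, and its fold of 3.7 was the lowest in the native list. The event at 65587162 on chromosome 18 had 51 IP and 12 control reads, and a V5 Olig2 event with 320.2 IP reads lay 93228 bp away. At the other end, the events with fewest IP reads, at 56562962 on chromosome 7 and 62633837 on chromosome 11 (11.1 each) and at 149508547 on chromosome 3 (11.3), had control reads listed at 0.

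The 200 bp limit had members close on both sides. Just inside the class, the event at 57846872 on chromosome 3 (40 IP reads) lay 1 bp past the limit from a Flag Hoxc9 event with 169 IP reads. The event at 103945555 on chromosome 7, with 61.7 IP reads, lay as close to a V5 Olig2 event with 22.9. The event at 69124973 on chromosome 5 (20 IP reads) lay 202 bp from a Flag Hoxc9 event. Just outside, the native event at 149981198 on chromosome 4 (29.1 IP reads) lay 200 bp from a Flag Hoxc9 event, that at 23790365 on chromosome 6 (18 IP reads) 200 bp from a V5 Olig2 event, and that at 52003937 on chromosome 7 (42 IP reads) 199 bp from a Flag Hoxc9 event. There were 102 native regions with the nearest event of another list over 200 and up to 250 bp away, 96 of them native-alone, with a median of 23.85 IP reads, and 106 at over 150 and up to 200 bp, with 25.7. The limit thus divided regions of like strength.

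The median distance from a native-alone region to the nearest V5 Olig2 event was 42746 bp, and 1383 of 4893 had none within 100 kb. The rule itself left out distances of 200 bp or less. To the nearest native event of another region the median was 29947 bp, in a longer list (14553 regions against 10290 for V5 Olig2). Distances from randomly placed positions were not computed, so these values do not show whether native-alone regions lay near or far from V5 Olig2 events. A V5 Olig2 event lay within 1 kb of 7.40% (362 regions; Wilson 95% interval 6.70 to 8.17) and within 10 kb of 23.7%. For native regions with Hoxc9 and no V5 Olig2 the values were 7.17% and 23.5%, within the intervals. Native IP reads varied little with this distance: their median was 23.05 with a V5 Olig2 event within 1 kb, 24.9 at 1 to 10 kb, 24 at 10 to 100 kb and 23.6 beyond.

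Of the 362 native-alone regions with a V5 Olig2 event within 1 kb, 294 had it in a region with a native event of its own (81.2%; 76.9 to 84.9). Over all V5 Olig2 regions this share was 77.1% (7931 of 10290), within that interval. Median native IP reads were 53.3 at those neighbouring regions and 23.05 at all 362 native-alone regions. The native-alone region was the weaker in 252 of the 294 pairs. This direction follows from the classes paired, since regions with both Olig2 lists had more native IP reads in general (medians of 41 and 56.9). Counted per 100 bp of distance, 90 native-alone regions had their nearest V5 Olig2 event at 200 to 300 bp, 31 at 500 to 1000 bp and 6.72 at 5 to 10 kb. For other native events these numbers were 142, 40 and 8, for Flag Hoxc9 events 102, 38.2 and 11.7, and for V5 Hoxc9 events 22, 14 and 5.64. All 4 lists were densest at the shortest distances. Chromatin had been sheared to about 500 bp, and any part of fragment length in this was not tested. Close native events were not particular to native-alone regions. A native event of another region lay within 300 bp of 2.90% of them, 3.80% of regions with both Olig2 lists alone and 3.70% of those with V5 Olig2 alone.

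**Figure D4:**
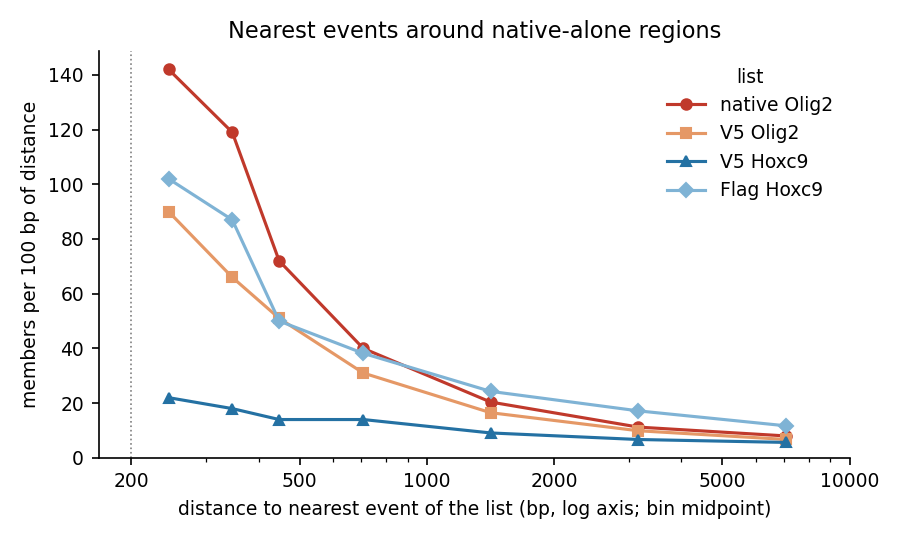
Number of native-alone regions per 100 bp of distance (vertical axis) whose nearest event of each list lay at that distance (horizontal log axis, geometric midpoint of the bin); the dotted line marks the 200 bp limit. Native Olig2 events of other regions are nearest most often just past the limit (142 per 100 bp), and all lists fall to between 5.64 and 11.7 at 5 to 10 kb.

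In their spacing to Hoxc9 events the native-alone regions were close to the regions of both Olig2 lists alone. A Flag Hoxc9 event lay within 10 kb of 36.2% of native-alone regions (Wilson 95% interval 34.9 to 37.6) and of 36.7% of regions with both Olig2 lists alone (35.4 to 38.0). For V5 Hoxc9 these were 14.3% and 15.6%. Another native region lay within 10 kb of 30.1% of native-alone regions (28.9 to 31.4) and of 34.5% of regions with both Olig2 lists alone (33.2 to 35.7). The 2053 regions with V5 Olig2 events alone had a native event within 10 kb in 31.6% and a Flag Hoxc9 event in 34.8%. No event of any list lay within 50 kb of 519 native-alone regions (10.6%), whose median IP reads were 23. This count was not made for other classes, so it does not set the native-alone regions apart. A Flag Hoxc9 event lay within 50 kb of 75.3% of native-alone regions and 75.2% of regions with both Olig2 lists alone. For another native region these values were 62.3% and 65.9%.

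Along the chromosomes, native-alone regions followed regions with Olig2 and no Hoxc9 more often than regions in general. The next region was native-alone after 14.5% of native-alone regions (711 of 4890; Wilson 95% interval 13.6 to 15.6), after 14.6% of regions with both Olig2 lists alone and after 13.0% of regions with V5 Olig2 alone. It was native-alone after 8.79% of native regions with Hoxc9 and no V5 Olig2 and after 8.40% of all regions, close to the 8.41% that native-alone regions make up of all regions. Of all 58192 regions, 43810 held a Flag Hoxc9 event. The pattern was not particular to native-alone regions. A region with both Olig2 lists alone came next after 16.5% of native-alone regions, 17.0% of its own class and 9.33% of all regions. For V5 Olig2 alone these values were 5.46%, 7.26% (its own class) and 3.53%. Most native-alone regions, 3605, had a region of another class on each side, and 7 runs reached 5 in a row. The shortest of these runs spanned 117179103 to 117194005 on chromosome 11, 14903 bp, with 19.1 to 93.2 IP reads, and began with the region of 2 events named above.

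Counted in windows of 1 Mb, native-alone regions were found in 1730 windows, with a median of 2, and 308 windows with 5 or more held 41.0% of them. The window from 96000000 to 96999999 on chromosome 11 held the most, 19 of its 36 native regions (52.8%; Wilson 95% interval 37.0 to 68.0). It was also rich in Hoxc9, with 33 V5 and 76 Flag Hoxc9 regions. Among windows it ranked 2 for native Olig2, 2 for V5 Hoxc9, 6 for Flag Hoxc9 and 19 for V5 Olig2, with 17 regions. This window was picked for its count of native-alone regions. A high native-alone share, and a native rank above the V5 Olig2 rank, partly follow from that choice. The 19 had 18 to 43.9 IP reads (median 23.4) and 0 to 6.2 control reads (median 1.5). The strongest were neighbours at 96603486 (42 IP and 6.2 control reads) and 96604514 (43.9 and 2.8). A Flag Hoxc9 event lay within 5 kb of 12 of the 19, and the median distance to one was 2075 bp. Over all native-alone regions these values were 24.3% (1188 of 4893) and 17949 bp. With 76 Flag Hoxc9 regions in the window, short distances can hold for any region there. The window's other native regions were not compared, so this closeness does not set the 19 apart. The next windows were 101000000 to 101999999 on chromosome 3 and 122000000 to 122999999 on chromosome 8, with 15 native-alone regions each.

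Every chromosome carried native-alone regions, at 28.8% to 38.7% of its native regions. The share was highest on chromosome 11 (393 of 1015; Wilson 95% interval 35.8 to 41.8) and lowest on chromosomes 18 (28.8%; 25.1 to 32.9), 14 (29.2%; 25.6 to 33.2) and 1 (29.7%; 27.0 to 32.5), whose intervals did not overlap that of chromosome 11. These were picked as the extremes after all chromosomes were seen, so the gap between intervals is no test of a difference. Chromosome 11 also had the fewest Flag Hoxc9 regions per native region, 2.10, and chromosome 14 the most, 4.02. Some other chromosomes followed this order, such as 19, with 2.33 and a share of 37.2%, and 18, with 3.59 and 28.8%. Others did not: chromosome 7, with 2.15, had a share of 33.4%, and X, with 3.27, one of 36.3%. Chromosomes 3 and 16, with 3.80 and 3.86, had shares of 32.9% and 32.4%. Both measures are taken per native region, so they are not independent. Of native regions without a V5 Olig2 event, 82.9% on chromosome 11 and 68.2% on chromosome 14 had no Hoxc9 event either. Of all native regions on these chromosomes, 7.98% and 13.6% held Hoxc9 and no V5 Olig2 event, and 53.3% and 57.2% held a V5 Olig2 event. Native-alone regions are the rest. The share with a V5 Olig2 event was highest on chromosomes 18 (58.1%), 1 (57.5%) and 14, which had the lowest native-alone shares. The parts of Hoxc9 density and of V5 Olig2 events in the chromosome shares were not tested. Median IP reads at native-alone regions were between 22 and 25 on the autosomes and 19.5 on X.

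**Figure D5:**
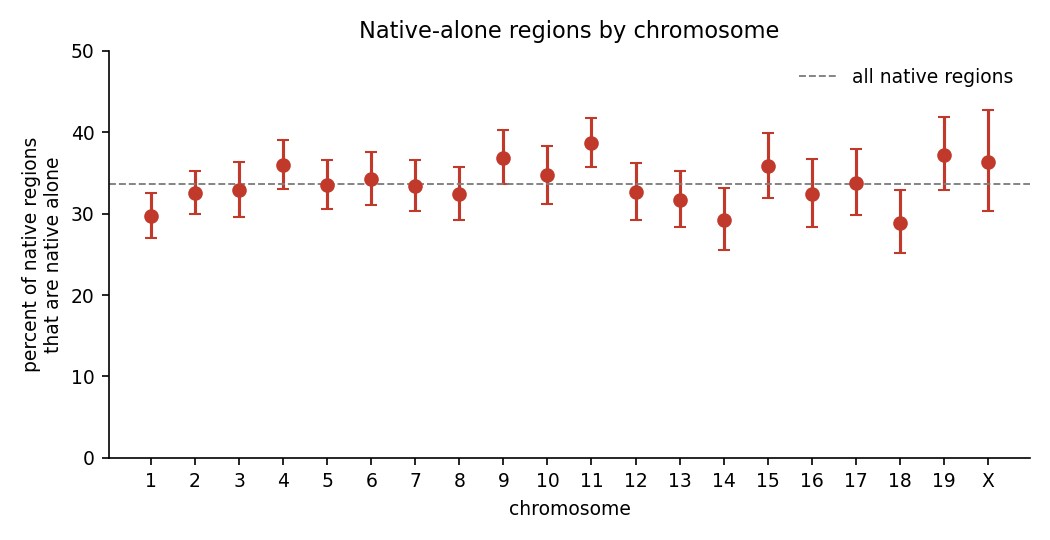
Percent of native regions that were native-alone (vertical axis, with Wilson 95% intervals) on each chromosome (horizontal axis); the dashed line is the 33.6% of all native regions. Chromosome 11 is highest at 38.7% and chromosome 18 lowest at 28.8%.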

How the data were processed

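ChIP-seq events of 4 samples were used; the other sample, where anti-V5 was used on cells without the tagged factor, was not analysed here. Per the submitters' processing notes, reads were aligned with Bowtie 0.12.5 to mm9. The deposited interval lists call each event GPS_PEAK; the sources used here do not give the caller's settings or control library. Per the labels' design text, 2 libraries went into the V5 Hoxc9 list and 1 into each other list. Per the file headers, each event has estimated counts of reads in the IP and the control, the fold as a ratio of IP to control (listed as 9999.9 at most events with 0 control reads), and the −log10 of p and q. These are the authors' values and were used to describe and rank events within a list. The authors' deposited score columns were not used. Deposited intervals are 1 bp wide and start at the same number as the event tables, so positions can be off by 1 bp. The 22 events on unplaced contigs were left out.

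Chaining was tested on simulated lists. Regions and lists were chosen with earlier results of these data known. Regions were named by a rule: the 10 with most IP reads, the 5 with most events (ties by IP reads), 3 on each side of the 200 bp limit, and 3 each with most control and fewest IP reads. The window, chromosome and run values were named after they were seen, as were the ranges of IP reads. Alternatives were other chaining gaps, stricter folds and q, lists of equal length, all events, other distances and, added after seeing the data, leaving out lists. Sequence, motif, start site and gene list descriptions were planned and not run, since no mm9 genome was used here, so regions have no gene names. Values were computed in Python 3.11.15 with pandas 2.3.3 and numpy 2.4.6, intervals with SciPy 1.17.1, and figures with matplotlib 3.10.9.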

Additional observations from a re-analysis of the deposited data

Results flagged for a closer look

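Native Olig2 events on unplaced contigs lay outside the comparisons, and their IP reads exceeded their control reads, as at all listed native events. There were 3. On contig 1_random, the event at 34474 had 100 IP and 0.7 control reads and a V5 Olig2 event at the same position, and the event at 246383 had 32 IP and 0.3 control reads and a V5 Olig2 event 4 bp away. On Un_random, the event at 3235056 had 17 IP reads, control reads listed at 0, and its nearest event of another list 410182 bp away. Under the same rule it alone of the 3 would have been native-alone.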

How the results depend on the processing

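No paired analysis was possible because each condition had 1 list. Of 50 values under alternatives, 27 stayed within 1.5 times the number of regions reported or within the interval of the value reported. Chaining gaps of 100, 500 and 1000 bp gave 35.8%, 31.6% and 30.0% of native regions as native-alone, and left 12.3%, 2.95% and 0% of them with a V5 Olig2 event within 1 kb, the last by construction. Distances of 500 bp, 5 kb and 10 kb gave 4.23%, 16.8% and 23.7%. A fold of 10 or more in every list raised the share to 43.6% and the median IP reads to 26. The 11000 events with most IP reads of every list gave 2958 regions, 28.9%, with median IP reads of 31 and a median fold of 21.1 (22.3 over all native-alone regions). A native q past the median of its list kept 1008 regions, 13.9%, with medians of 39 IP reads and a fold of 31.35. Leaving out lists was chosen after seeing the data: without the V5 Olig2 list 10421 regions (71.2%) had native events alone, without the Flag Hoxc9 list 41.0%, and without both Hoxc9 lists 45.7%. Median IP reads stayed at 24 under all 3 other gaps. Depth is unknown, so a missing V5 Olig2 event means only that none was listed.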
